A study of Homo sapiens with 24 samples.

Results

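Genes that make or limit the deoxynucleotides for DNA synthesis were followed through the transcriptomes of A2780 and A2780cis ovarian cancer cells. They were picked out by gene symbol and are 7 of the 63299 genes in the table of counts: the ribonucleotide reductase subunits RRM1, RRM2 and RRM2B, the deoxynucleoside kinases DCK and DGUOK, the dNTP hydrolase SAMHD1 and the deoxycytidylate deaminase DCTD. All 7 passed the filter on low counts. Whole transcriptome sequencing had been done on 24 libraries in 8 groups of 3, with the aim of comparing the response of a platinum-sensitive and a platinum-resistant line. The groups were A2780 (platinum-sensitive) and A2780cis (its isogenic platinum-resistant counterpart), each either left in standard growth medium or exposed to 1 μM 5-FdU-ECyd, and harvested after 6 h or 12 h. 5-FdU-ECyd is a duplex-prodrug that joins the antimetabolites 2'-deoxy-5-fluorouridine and 3'-C-ethynylcytidine. A2780cis cells were given cisplatin in some passages to keep their resistance, so line and earlier cisplatin exposure cannot be told apart, and each line is a single model of its kind. The study calls the 3 libraries of a group biological replicates, and the labels do not say whether they came from separate cultures. P-values measure the spread between these libraries.

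Ribonucleotide reductase turns ribonucleotides into deoxyribonucleotides and is the rate-limiting step of their de novo synthesis. Its large subunit, RRM1, carries the catalytic site and works with one of a pair of small subunits: RRM2, which is made in S phase, or RRM2B (also called p53R2), a p53 target that serves cells outside S phase and after DNA damage. DCK in the cytosol and DGUOK in mitochondria salvage deoxynucleosides by phosphorylating them, SAMHD1 breaks dNTPs down to deoxynucleosides, and DCTD converts dCMP to dUMP, the substrate of thymidylate synthase.

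Promoter sequences from RefSeq (GRCh38.p14, 250 bases before and 50 after each start site) were used for 6 of the 7 genes, without RRM2B. They were searched on both strands for the CCAAT box, a common promoter element bound by NF-Y, and for the E2F site of S-phase genes, spelled TTTCCCGC, TTTCGCGC, TTTGCCGC or TTTGGCGC. A CCAAT box is in 34.6% of the 35116 promoters of the table and one of the E2F spellings in 3.3%. Windows of 30 bases around matches are shown for both subunits of the S-phase enzyme and for DCK and DGUOK, the kinases whose changes with treatment differed between the lines, with the matched letters in capitals.
RRM2, chr2:10122604-10122633 (+): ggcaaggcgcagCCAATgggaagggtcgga
RRM2, chr2:10122634-10122663 (+): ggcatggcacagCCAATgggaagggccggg
RRM2, chr2:10122661-10122690 (+): ggggcaccaaagCCAATgggaagggccggg
RRM1, chr11:4094645-4094674 (+): gcatgtccatatCCAATggggcccatggga
DGUOK, chr2:73926637-73926666 (+): aatgttatttgtCCAATgaacaaaaaccac
DCK, chr4:70993658-70993687 (+): agctgcctccgcGCGCCAAAgtcaaacccc
The 3 RRM2 boxes shown begin 123, 93 and 66 bases before the start of the MANE transcript and share the flank gggaaggg, whereas RRM1 has a single box that begins 28 bases before its RefSeq start. The DGUOK box begins 231 bases before the start. DCK has no CCAAT box in its window but holds TTTGGCGC on the opposite strand, at position 22 counted from the start site. None of the E2F spellings was found in the promoters of RRM1, RRM2, DGUOK, SAMHD1 or DCTD. A second RefSeq start of RRM2 has 1 more box, 249 bases before it, which is not shown. SAMHD1 has a pair of CCAAT boxes, 49 and 38 bases before its start, and DCTD no match. These are matches of letters and no measurement of binding.

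The lines were first checked against their markers, and the depth of the libraries was read from the table. Totals ranged from 11077368 to 21901406 counts per library. Each of the 7 genes had at least 321 counts in every library. Of the markers of epithelial and ovarian cells, CDH1, PAX8, WT1 and MUC16 had at most 2 counts in any library. KRT19 had at most 6 counts and EPCAM at most 28. KRT8 (7 to 135 counts), KRT18 (10 to 602) and CDH2 (20 to 988) were above 3 counts in all 24 libraries. Their highest levels were 6.89, 29.2 and 51.2 CPM (counts scaled to library size). All marker levels and their sums in this paragraph were scaled by the library total alone. The CPM of the 7 genes below also use the TMM factors of edgeR, so they are not on the same scale as the marker levels. VIM, which like CDH2 marks mesenchymal rather than epithelial cells, stood between 879 and 2564 CPM. Of 10 markers of other cell types, PTPRC, CD3E, PECAM1, VWF, HBB and ALB had at most 3 counts in any library. The summed level of the 10 genes of the epithelial and ovarian list was 912 to 1070 CPM in treated libraries of 12 h. It was 2215 to 2619 CPM in untreated libraries of that time. Nearly all of this sum was VIM, so it is no measure of epithelial or ovarian identity. COL1A1, COL1A2, DCN and CD68 were detected, and the summed level of the 10 markers was 44.8 to 94.0 CPM in A2780 and 6.77 to 11.6 CPM in A2780cis. The part of either marker list in the differences by treatment or line was not tested. The CPM of a gene is its share of the counted RNA, so a rise or fall below is relative to other genes. The paper describes 3'-C-ethynylcytidine as an inhibitor of RNA polymerase, and the counts do not show total RNA per cell. Each log2 FC below is given ± its SE, with the p of edgeR's quasi-likelihood test, fitted on all 24 libraries and adjusted by Benjamini-Hochberg over the 20240 genes tested, and a gene was called at an adjusted p of 0.05.

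The genes differ widely in abundance. Divided by the length of the MANE Select transcript, the reference transcript of each gene, mean CPM per kb in untreated A2780 cells at 12 h was 93.9 ± 3.97 (SD, n = 3) for RRM1 and 82.5 ± 1.51 for RRM2. It was 50.7 ± 2.05 for DCTD, 41.6 ± 0.729 for DGUOK and 16.9 ± 0.761 for DCK. RRM2B, at 9.59 ± 1.32, and SAMHD1, at 7.19 ± 0.336, were the lowest. The place of RRM2 depends on the length used: with all annotated exons of the gene merged (9153 bp, which take in a neighbouring gene model, against 3258 bp for the transcript) its level was 29.4 CPM per kb, against 69.7 for RRM1, 30.7 for DGUOK and 29.2 for DCTD.

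**Figure D1:**
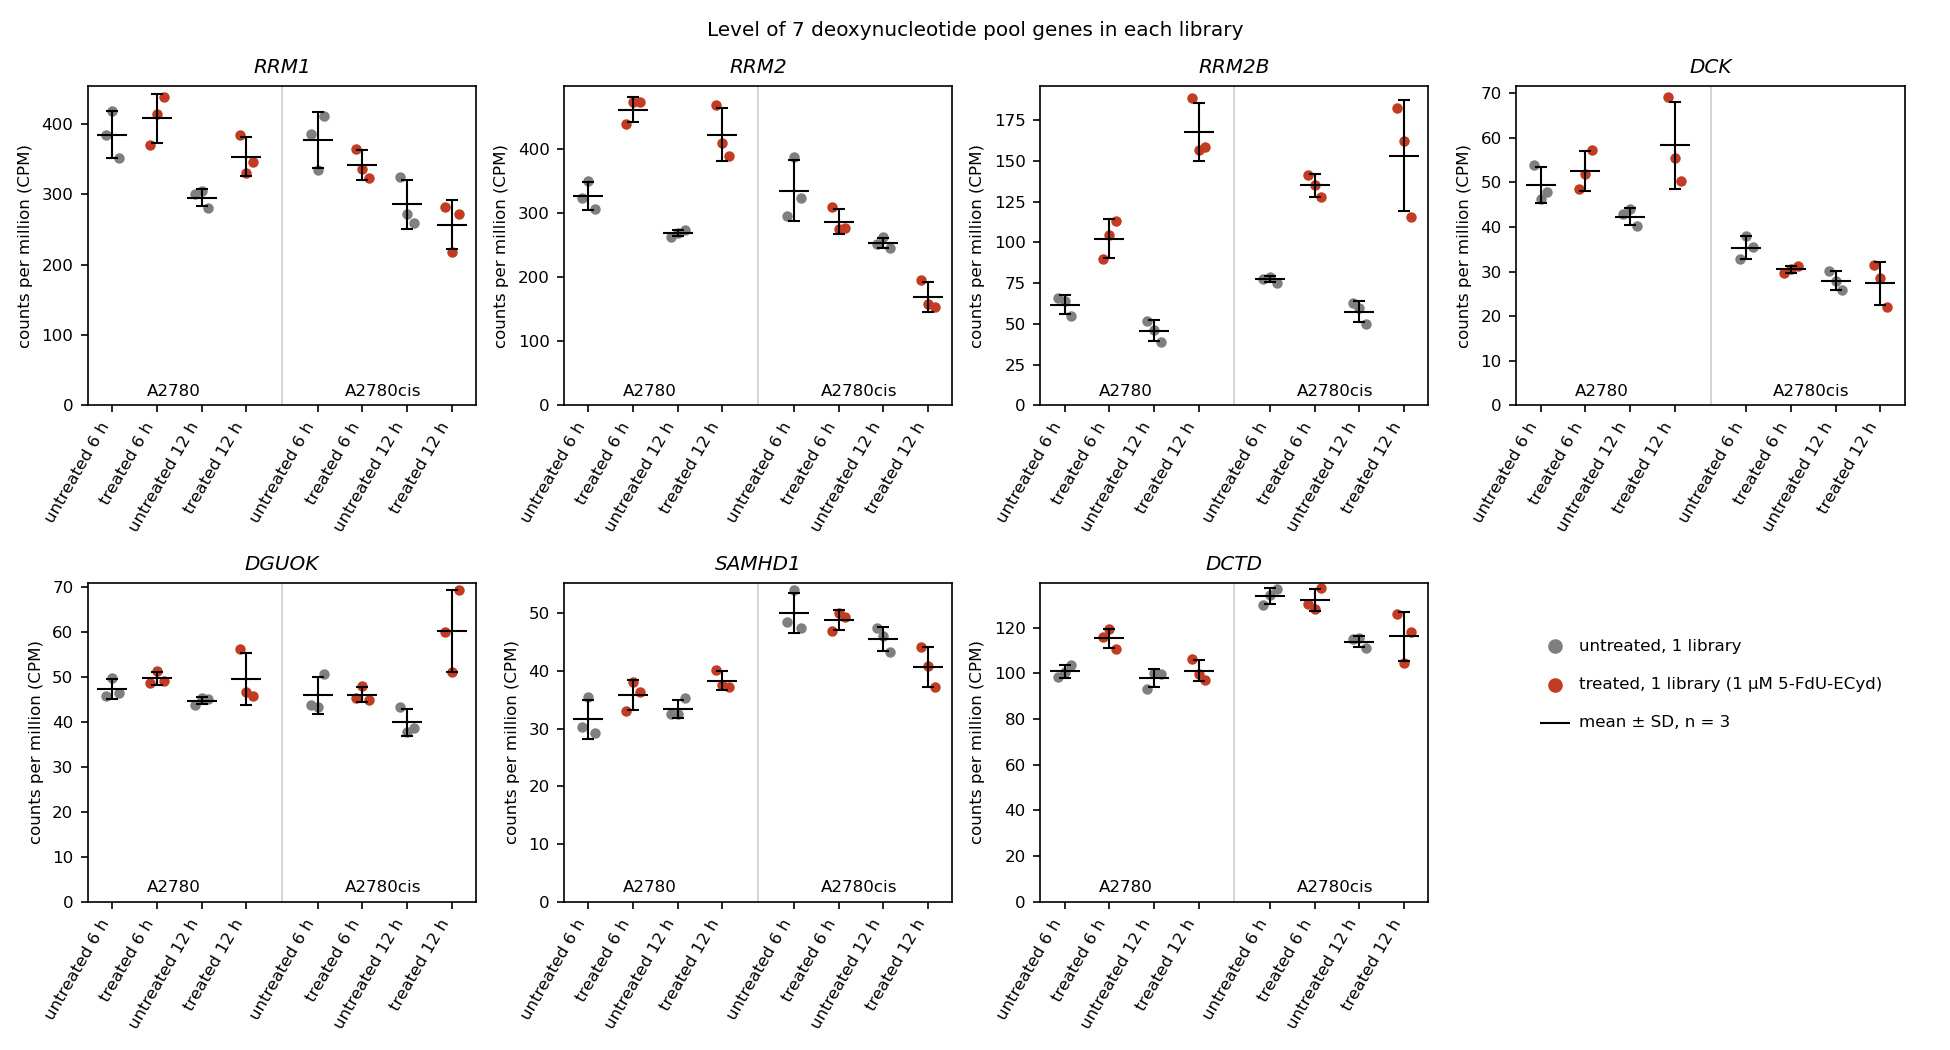
TMM-scaled CPM of each of the 7 genes in each of the 24 libraries, on linear axes that start at 0; grey points are untreated and red points treated libraries, and black bars give the mean ± SD of 3. RRM2B is higher in every treated than in every untreated library of the same line and time, while RRM2 is higher with treatment in A2780 and lower at 12 h in A2780cis.

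RRM2B rose in both lines at both times, and by more than any other of the 7 genes. The gene (ENSG00000048392) lies on chromosome 8, with a transcript of 9 exons on the minus strand (GRCh38, 102204502 to 102238961). In A2780 at 6 h its level was 65.8, 64.3 and 55.0 CPM in untreated and 89.8, 104.3 and 113.0 CPM in treated libraries (log2 FC 0.73 ± 0.13 SE, adjusted p = 2.18e-04). The 12 h values were 51.7, 46.5 and 39.2 CPM against 188.6, 157.0 and 158.6 CPM, a 3.67-fold difference (log2 FC 1.88 ± 0.14, adjusted p = 1.59e-11). No treated library overlapped an untreated one in either comparison.

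In A2780cis the untreated libraries at 6 h held 77.8, 78.9 and 75.2 CPM of RRM2B and the treated ones 141.7, 135.5 and 128.0 CPM (log2 FC 0.80 ± 0.13, adjusted p = 5.25e-05). At 12 h the levels were 63.1, 59.5 and 50.1 CPM without and 182.3, 162.4 and 115.5 CPM with treatment, a 2.66-fold difference (log2 FC 1.41 ± 0.13, adjusted p = 1.44e-09). Treated libraries were again all above untreated ones, although the third treated library at 12 h, at 115.5 CPM, lay below all 3 treated libraries of 6 h. The rise was larger at 12 h than at 6 h by 1.15 ± 0.19 on the log2 scale in A2780 (adjusted p = 1.25e-04, with 23.7% of all genes past the threshold in this test). In A2780cis it was larger by 0.61 ± 0.19 (adjusted p = 0.0191; 24% of all genes). That difference in A2780cis did not pass without treated replicate 3 of 6 h (0.57, adjusted p = 0.0502), without untreated replicate 3 of 12 h (0.51, adjusted p = 0.0653) or without treated replicate 1 of 12 h (0.40, adjusted p = 0.116). Between the lines, the treatment effect on RRM2B differed by 0.075 at 6 h (95% confidence interval -0.33 to 0.47, adjusted p = 0.925). At 12 h it was 0.46 smaller in A2780cis (interval of the difference -0.86 to -0.069), which missed the threshold with an adjusted p of 0.0714, but passed in 3 of 8 other settings (adjusted p from 0.0209 to 0.163 over the 8).

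RRM2, the S-phase small subunit, moved in opposite directions in the lines. The gene (ENSG00000171848) lies on chromosome 2, with a transcript of 10 exons on the plus strand (10122739 to 10131414). In A2780 at 6 h its level was 324.8, 350.9 and 306.7 CPM in untreated and 439.3, 474.0 and 473.8 CPM in treated libraries. This was a log2 FC of 0.50 ± 0.10 (adjusted p = 7.30e-04). At 12 h the untreated libraries held 263.6, 269.8 and 273.3 CPM and the treated ones 469.1, 409.8 and 390.2 CPM, a log2 FC of 0.65 ± 0.10 (adjusted p = 7.36e-06). All treated libraries of A2780 were above all untreated ones, at either time.

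In A2780cis at 6 h, RRM2 was at 295.1, 388.0 and 324.0 CPM without and 309.7, 275.0 and 276.4 CPM with treatment. The groups overlapped, and the log2 FC of -0.23 ± 0.10 did not pass the threshold (adjusted p = 0.101). It passed without untreated replicate 1 (log2 FC -0.31, adjusted p = 0.0404). At 12 h the level was 252.6, 262.6 and 245.9 CPM in untreated and 196.2, 158.6 and 153.4 CPM in treated libraries, with no overlap (log2 FC -0.58 ± 0.10, adjusted p = 2.93e-05). The treated group of 12 h had the lowest RRM2 level of the 8 groups, 169 ± 23.3 CPM, and treated A2780 at 6 h the highest, 462 CPM on average.

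The test of the difference between the lines passed at both times for RRM2. The log2 FC in A2780cis minus that in A2780 was -0.72 ± 0.15 at 6 h (adjusted p = 0.00502). At 12 h it was -1.24 ± 0.15 (adjusted p = 1.64e-06). Of the 20240 genes tested, 207 (1.02%) were up-regulated in A2780 and down-regulated in A2780cis at 12 h, and RRM2 was the one of the 7 genes among them. Counts of the RRM2 row were not whole in 19 libraries. The counting split reads with several alignments and allowed overlap with several genes, and which of these applied here was not tested. Its processed pseudogenes RRM2P2, RRM2P3 and RRM2P4 held at most 0.549% of the RRM2 count in any library.

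RRM1, the large subunit, changed little. The gene (ENSG00000167325) has a transcript of 19 exons on the plus strand of chromosome 11 (4094799 to 4138932). In A2780 at 6 h the untreated libraries held 384.1, 418.3 and 352.1 CPM and the treated ones 369.9, 414.3 and 438.7 CPM, which overlapped (log2 FC 0.083 ± 0.11, adjusted p = 0.608). At 12 h the levels were 299.8, 304.5 and 280.9 CPM against 384.4, 330.4 and 345.4 CPM (log2 FC 0.26 ± 0.11, adjusted p = 0.0466). The groups of 12 h did not overlap, but the call was lost without treated replicate 1 or 3 or any 1 of the untreated replicates, and held without treated replicate 2 (adjusted p from 0.0382 to 0.198 over the 6 libraries left out). It was also lost without the filter on low counts (adjusted p = 0.0942).

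In A2780cis RRM1 was at 386.2, 334.1 and 411.7 CPM without and 364.6, 336.4 and 322.6 CPM with treatment at 6 h (log2 FC -0.15 ± 0.11, adjusted p = 0.339). The 12 h libraries were at 324.8, 272.3 and 259.0 CPM against 281.2, 217.4 and 271.5 CPM (log2 FC -0.15 ± 0.11, adjusted p = 0.236). Treated and untreated libraries overlapped at both times. The 12 h effect in A2780cis was 0.41 below that in A2780 (95% interval of the difference -0.74 to -0.085), which missed the threshold (adjusted p = 0.0537), but passed in 6 of 8 other settings (adjusted p from 0.00185 to 0.131 over the 8).

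**Figure D2:**
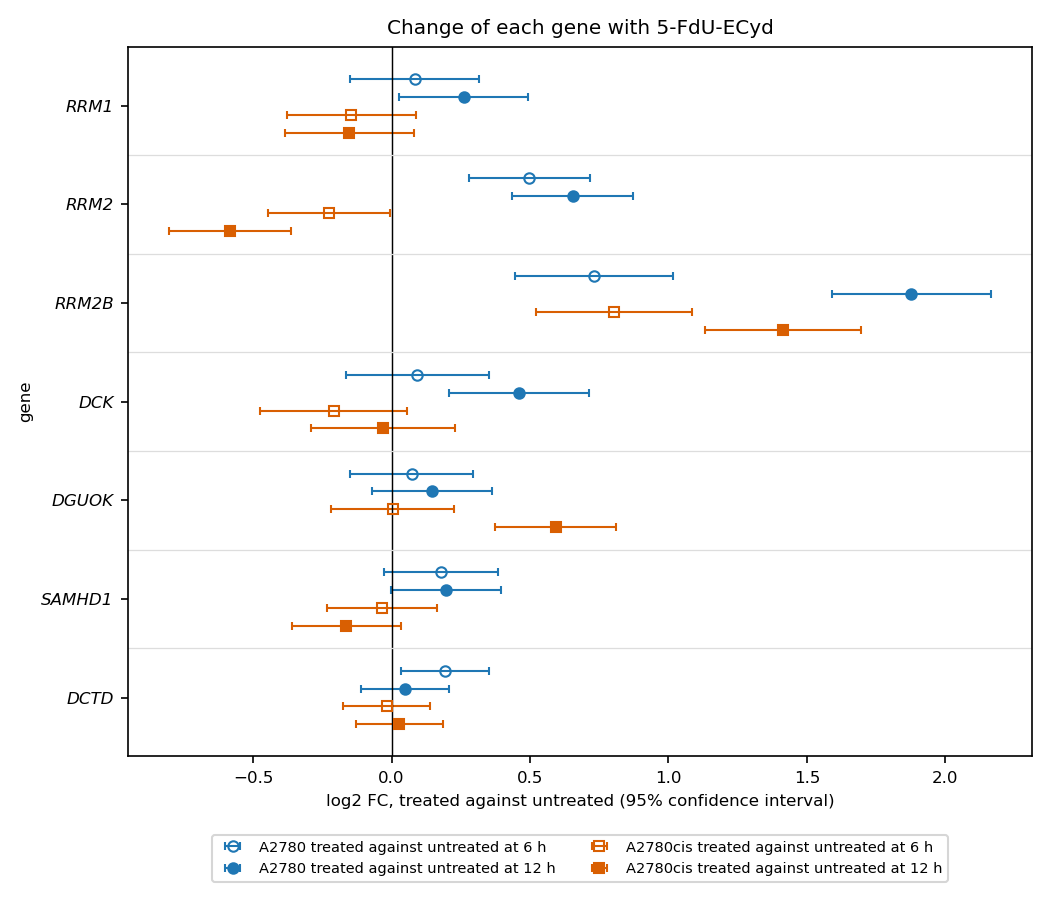
Log2 FC of treated against untreated cells for the 7 genes in each line and time, with 95% confidence intervals from edgeR; circles are A2780, squares A2780cis, open symbols 6 h and filled symbols 12 h. The intervals of RRM2B lie right of 0 in all 4 comparisons, and those of RRM2 lie right of 0 in A2780 and left of 0 in A2780cis, although at 6 h in A2780cis the adjusted p-value missed the threshold.

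The balance between the small subunits was read within each library, where scaling between libraries plays no part. In A2780 at 6 h there were 20.3, 18.3 and 17.9 RRM2B counts per 100 RRM2 counts without treatment and 20.4, 22 and 23.9 with it. At 12 h the untreated libraries had 19.6, 17.2 and 14.3 and the treated ones 40.2, 38.3 and 40.6. The treated values lay above the untreated ones at both times, narrowly at 6 h.

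In A2780cis the ratio at 6 h was 26.4, 20.3 and 23.2 RRM2B counts per 100 RRM2 counts in untreated and 45.7, 49.3 and 46.3 in treated libraries. At 12 h it was 25.0, 22.7 and 20.4 without and 92.9, 102.4 and 75.3 with treatment, so that RRM2B came close to RRM2 in counts and exceeded it in 1 library. On the log2 scale the ratio was higher with treatment by 0.23 and 1.23 in A2780 at 6 h and 12 h, and by 1.02 and 1.99 in A2780cis. The treated and untreated libraries were separate in all 4 comparisons (two-sided exact permutation test, p = 0.1 in each, the smallest that 3 against 3 allow). Per transcript length the RRM2B share is smaller, since its transcript is the longer (4774 bp against 3258 bp).

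**Figure D3:**
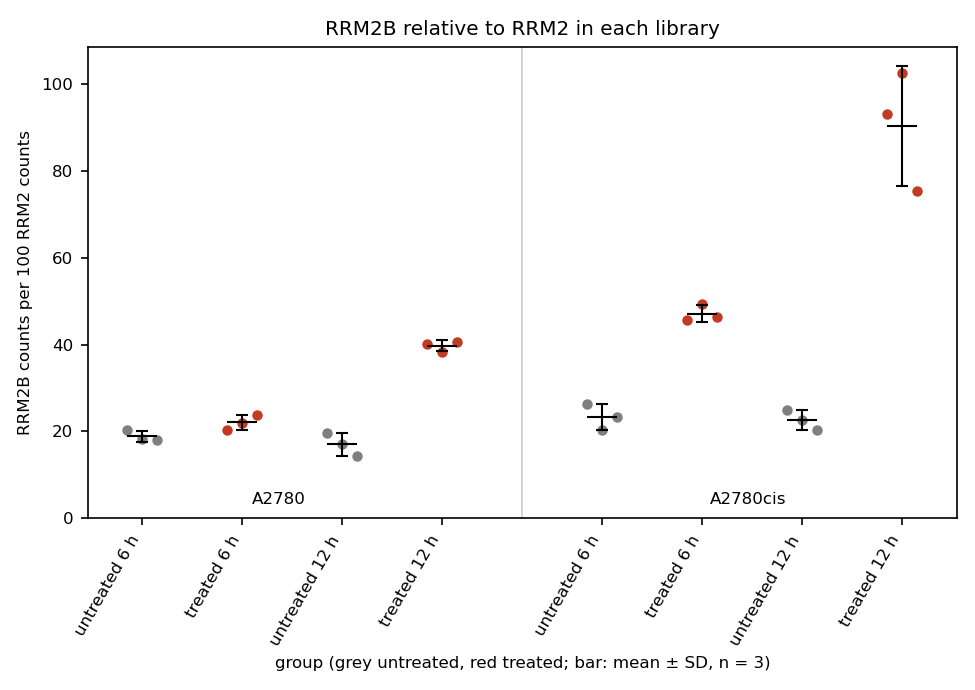
RRM2B counts per 100 RRM2 counts in each library, on a linear axis that starts at 0; grey points are untreated and red points treated libraries, and bars give the mean ± SD of 3. Treated A2780cis cells at 12 h reach 75.3 to 102.4, above every other library.

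The ratio of RRM2 to RRM1 was compared within each line in the same way. In A2780 it went from 85.2 ± 1.70 to 114 ± 5.43 RRM2 counts per 100 RRM1 counts at 6 h, and from 91.3 ± 5.22 to 120 ± 5.88 at 12 h. In A2780cis it was 90.4 ± 22.3 without and 84.1 ± 2.10 with treatment at 6 h, where the libraries overlapped (exact permutation p = 1). At 12 h it was 89.7 ± 10.4 without and 66.4 ± 8.73 with treatment. The 2 ratios of A2780 and that of A2780cis at 12 h had no overlap (exact permutation p = 0.1 each).

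DCK phosphorylates deoxycytidine and many nucleoside analogues. It stood lower in A2780cis in every comparison of untreated cells and rose only in A2780 at 12 h. The gene (ENSG00000156136) has a transcript of 7 exons on the plus strand of chromosome 4 (70993649 to 71030914). In A2780 at 6 h it was at 53.9, 46.3 and 47.8 CPM without and 48.5, 52.0 and 57.4 CPM with treatment (log2 FC 0.093 ± 0.12, adjusted p = 0.604). The 12 h libraries were at 42.8, 43.9 and 40.2 CPM against 69.3, 55.4 and 50.3 CPM (log2 FC 0.46 ± 0.12, adjusted p = 0.00202). The 12 h groups were separate, and the first treated library was the highest of all 24.

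In A2780cis the levels of DCK at 6 h were 32.7, 37.9 and 35.4 CPM without and 29.7, 30.6 and 31.3 CPM with treatment (log2 FC -0.21 ± 0.12, adjusted p = 0.216). The treated libraries of 6 h lay just below the untreated ones. Levels at 12 h were 30.2, 27.9 and 25.8 CPM against 31.5, 28.7 and 22 CPM and overlapped (log2 FC -0.032 ± 0.12, adjusted p = 0.848). No DCK level of an A2780cis library reached that of any A2780 library. The 12 h effect was 0.49 ± 0.17 lower in A2780cis (adjusted p = 0.0384), a difference that did not pass in 8 of the 12 fits that left out 1 library (adjusted p from 0.0133 to 0.159) or with the compared samples alone (adjusted p = 0.105). DCK shares 199 bp of exon with MOB1B on the same strand in the annotation used here. The counting allowed reads to overlap several genes, but whether reads there were counted for both was not tested. The DCK counts were whole numbers in every library.

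DGUOK, the mitochondrial deoxyguanosine kinase, rose in A2780cis at 12 h. The gene (ENSG00000114956) has a transcript of 7 exons on the plus strand of chromosome 2 (73926880 to 73958946). In A2780cis at 12 h its level was 43.3, 37.7 and 38.7 CPM without and 60.1, 51.2 and 69.4 CPM with treatment, a 1.51-fold difference without overlap (log2 FC 0.59 ± 0.10, adjusted p = 2.08e-05). At 6 h it was 43.8, 43.3 and 50.7 CPM against 45.4, 48.0 and 45.0 CPM, with full overlap (log2 FC 0.00347 ± 0.10, adjusted p = 0.999). The effect at 12 h exceeded that at 6 h by 0.59 ± 0.15 (adjusted p = 0.00490).

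In A2780 DGUOK was at 45.7, 49.9 and 46.4 CPM without and 48.8, 51.4 and 49.1 CPM with treatment at 6 h (log2 FC 0.073 ± 0.10, adjusted p = 0.645). The 12 h libraries were at 43.8, 45.3 and 45.1 CPM against 56.2, 46.6 and 45.8 CPM (log2 FC 0.15 ± 0.10, adjusted p = 0.239). The groups of 6 h overlapped, and those of 12 h were separate by a narrow gap. The 12 h effect was 0.45 ± 0.14 larger in A2780cis (adjusted p = 0.0266). This difference did not pass in 7 of the 12 fits that left out 1 library (adjusted p from 0.00466 to 0.108) or without the filter on low counts (adjusted p = 0.0929). The weakest of these left out treated A2780cis replicate 3, the library with 69.4 CPM. DGUOK overlaps the antisense gene DGUOK-AS1 by 62 bp; how the counting treated strand was not stated.

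SAMHD1 and DCTD, which degrade or deaminate deoxynucleotides, passed the threshold in no treatment comparison in the fit of all 24 libraries with TMM scaling. SAMHD1 (ENSG00000101347) has a transcript of 16 exons on the minus strand of chromosome 20 (36890229 to 36951708). In A2780 it was at 30.3, 35.5 and 29.2 CPM without and 33, 38.1 and 36.3 CPM with treatment at 6 h (log2 FC 0.18 ± 0.097, adjusted p = 0.172). After 12 h the level was 32.6, 32.5 and 35.2 CPM against 40.2, 37.6 and 37.3 CPM, separate by a small margin (log2 FC 0.20 ± 0.094, adjusted p = 0.0803). That comparison passed with lncRNA and rRNA genes removed (0.22, adjusted p = 0.0401), with the compared samples alone (0.21, adjusted p = 0.0493) and with library size as the only scaling (0.42, adjusted p = 2.95e-04).

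In A2780cis SAMHD1 was higher from the start, at 48.5, 54.0 and 47.5 CPM without and 46.9, 50.1 and 49.4 CPM with treatment at 6 h (log2 FC -0.035 ± 0.094, adjusted p = 0.826). After 12 h the level was 47.4, 46.1 and 43.3 CPM against 44.1, 40.8 and 37.1 CPM (log2 FC -0.16 ± 0.093, adjusted p = 0.132). The line-by-treatment difference at 12 h was -0.36 ± 0.13 (adjusted p = 0.0490), and it did not pass in 10 of the 12 fits that left out 1 library (adjusted p from 0.0234 to 0.123), nor without the filter on low counts (adjusted p = 0.152) or with the compared samples alone (adjusted p = 0.120). TLDC2 on the opposite strand shares 1068 bp of exon with SAMHD1 but held at most 100 counts.

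DCTD (ENSG00000129187) has a transcript of 6 exons on the minus strand of chromosome 4 (182890091 to 182917386). In A2780 at 6 h it was at 98.3, 100.4 and 103.8 CPM without and 115.9, 119.2 and 110.7 CPM with treatment, which did not overlap (log2 FC 0.19 ± 0.075, adjusted p = 0.0548). After 12 h the level was 93.2, 100.2 and 99.8 CPM against 106.3, 99.9 and 97.2 CPM (log2 FC 0.048 ± 0.075, adjusted p = 0.608). In A2780cis DCTD lay between 104.6 and 137.5 CPM in all 12 libraries, with overlap of treated and untreated at 6 h (log2 FC -0.018 ± 0.075, adjusted p = 0.894) and at 12 h (log2 FC 0.028 ± 0.074, adjusted p = 0.767). DCTD had the narrowest range of the 7 genes, 1.37-fold between its lowest and highest group mean.

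Counted over the 7 genes, 2 passed the threshold in A2780 at 6 h (RRM2 and RRM2B, both up-regulated), where 29.4% of all genes passed in either direction. At 12 h 4 passed (RRM1, RRM2, RRM2B and DCK, all up-regulated), against 54.8% of all genes. In A2780cis 1 gene passed at 6 h (RRM2B, against 30.7% of all genes) and 3 at 12 h (RRM2B and DGUOK up, RRM2 down, against 59.9%). The counts in A2780 were thus near the share of all genes, and those in A2780cis below it. Treated and untreated libraries did not overlap for 3 and 6 of the 7 genes in A2780 at 6 h and 12 h, against 41.6% and 64% of all genes, and for 2 and 3 in A2780cis, against 43.2% and 59.6%. The median log2 FC of the 7 was 0.18 and 0.26 in A2780 and -0.035 and -0.032 in A2780cis, against medians of 0.037, 0.015, 0.000321 and 0.037 over all genes tested. With scaling by library size alone, 4 and all 7 genes were past the threshold in A2780 at 6 h and 12 h, the median of all genes at 12 h then being 0.24. The difference between the lines passed for 1 gene at 6 h (RRM2, against 3.07% of all genes) and for 4 at 12 h (RRM2, DCK, DGUOK and SAMHD1, against 23.7%). That number was 1 without untreated replicate 2 or treated replicate 2 of A2780 or untreated replicate 2 of A2780cis. It was 2 without untreated replicate 3 or treated replicate 1 or 3 of A2780, or without untreated replicate 1 or treated replicate 3 of A2780cis.

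**Figure D4:**
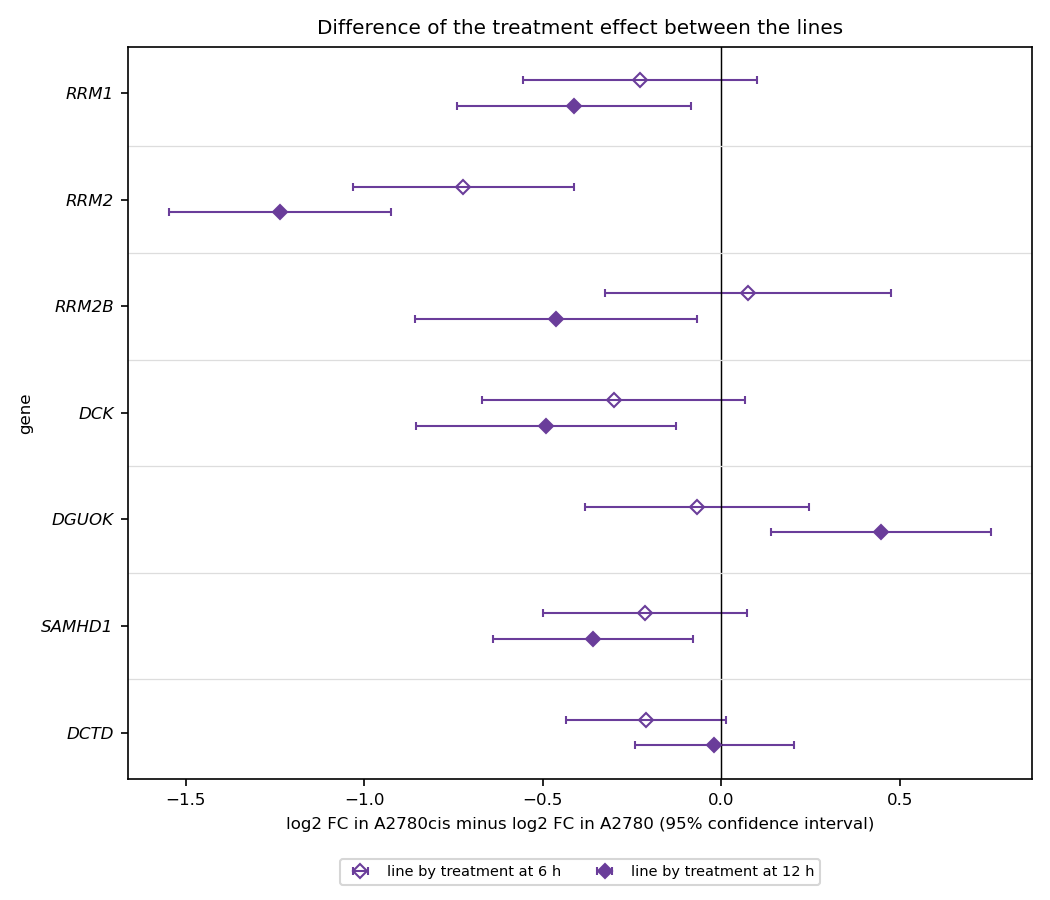
Log2 FC in A2780cis minus log2 FC in A2780 for the 7 genes at 6 h (open) and 12 h (filled), with 95% confidence intervals from edgeR. RRM2 lies farthest from 0, at -0.72 and -1.24, and DGUOK at 12 h is the one gene with an interval right of 0.

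Untreated cells of the lines also differed. At 6 h 3 of the 7 genes passed the threshold (against 47.9% of all genes): DCK was lower in A2780cis (log2 FC -0.48 ± 0.12, adjusted p = 0.00201), SAMHD1 was higher (0.66 ± 0.096, adjusted p = 2.23e-06) and so was DCTD (0.41 ± 0.075, adjusted p = 5.76e-05). At 12 h the same 3 genes passed in the same directions, together with RRM2B, and 52.9% of all genes passed. DCK was lower by 0.60 ± 0.12 (adjusted p = 1.74e-04). SAMHD1 was higher by 0.45 ± 0.094 (adjusted p = 2.35e-04), DCTD by 0.22 ± 0.074 (adjusted p = 0.0150, but 0.122 without the filter on low counts) and RRM2B by 0.33 ± 0.13 (adjusted p = 0.0392). The RRM2B libraries overlapped, and its call was lost without untreated A2780 replicate 2 or 3 or untreated A2780cis replicate 1 or 2 (adjusted p 0.0707, 0.202, 0.150 and 0.0990). RRM1, RRM2 and DGUOK did not pass at either time. The libraries of the lines did not overlap for 4 of the 7 genes at 6 h and 5 at 12 h, against 52% and 62.3% of all genes.

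Untreated cells were also compared between 12 h and 6 h. In untreated A2780cis cells RRM1 was lower at 12 h than at 6 h by 0.40 ± 0.11 on the log2 scale (adjusted p = 0.00545), RRM2 by 0.40 ± 0.10 (adjusted p = 0.00357) and RRM2B by 0.42 ± 0.13 (adjusted p = 0.0139). DCK (-0.34 ± 0.12, adjusted p = 0.0332) and DCTD (-0.23 ± 0.075, adjusted p = 0.0154) were lower too, so that 5 of the 7 genes passed, against 39.9% of all genes. This count fell to 1 with scaling by library size alone and to 3 without the filter, with lncRNA and rRNA genes removed or with the compared samples alone. It was 3 without untreated replicate 3 of 6 h and 2 without untreated replicate 3 of 12 h. In untreated A2780 cells 3 passed, against 26.9%: RRM1 (-0.38 ± 0.11, adjusted p = 0.0132), RRM2 (-0.28 ± 0.10, adjusted p = 0.0427) and RRM2B (-0.43 ± 0.14, adjusted p = 0.0208). That count was 0 without replicate 1 or 2 of 6 h or without replicate 3 of 12 h. The RRM2 call in A2780 was also lost with scaling by library size alone (adjusted p = 0.0853) and without the filter on low counts (adjusted p = 0.123). Libraries of 6 h and 12 h did not overlap for 5 of the 7 genes in A2780 and 6 in A2780cis, against 46.1% and 48.9% of all genes. For RRM2B, this fall in untreated cells enters the difference between its treatment effects at 12 h and 6 h. In treated A2780cis its mean was 135 CPM at 6 h and 153 CPM at 12 h, and these libraries overlapped. In treated A2780 the means were 102 and 168 CPM. In bulk libraries, a smaller share of cells that express a gene and less of its RNA per cell cannot be told apart.

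Related genes were read from lists of the pathway, against the 54.8% and 59.9% of all genes that passed in either direction at 12 h in A2780 and A2780cis. Of 20 p53 target genes, a list without RRM2B, 19 were tested, and all 19 of these were up-regulated in A2780 and 17 in A2780cis at 12 h, with 0 down-regulated and median log2 FCs of 1.84 and 1.48. RRM2B was thus close to the median of that list in both lines. At 6 h 18 and 15 of the 19 were up-regulated, with medians of 1.13 and 1.02. Of all genes, 29.4% and 30.7% passed in either direction at that time. At 12 h CDKN1A, the cyclin-dependent kinase inhibitor p21, rose by 2.89 ± 0.11 and 4.12 ± 0.12 in A2780 and A2780cis. GADD45A, a DNA damage response gene, rose by 3.17 ± 0.14 and 3.30 ± 0.14 at 12 h. Also at 12 h, BTG2, an antiproliferative gene, rose by 3.86 ± 0.12 and 3.23 ± 0.12. TP53I3, an oxidoreductase gene induced by p53, rose by 3.49 ± 0.11 and 2.74 ± 0.11 at that time. The line-by-treatment test at 12 h passed for 8 of the 19, with 7 lower and 1 higher in A2780cis, against 23.7% of all genes.

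Of 18 S-phase replication genes, by contrast, 11 were down-regulated and 3 up-regulated at 12 h in A2780, and likewise 11 and 3 in A2780cis, with medians of -0.38 and -0.45. UHRF1, which keeps up DNA methylation at replication, had log2 FCs of -1.08 ± 0.15 and -1.26 ± 0.15. MCM6, a subunit of the replicative helicase, had -1.05 ± 0.10 and -0.68 ± 0.10, and POLA1, the catalytic subunit of DNA polymerase alpha, -0.76 ± 0.095 and -0.87 ± 0.096. CCNE2, a cyclin of the G1/S transition, rose by 1.94 ± 0.11 in A2780 and 0.75 ± 0.11 in A2780cis. RFC4, a subunit of the clamp loader, rose by 0.44 ± 0.11 in each line. The rise of RRM2 in A2780 therefore stood apart in sign from most of these genes, and its fall in A2780cis did not. At 6 h 6 of the 18 were up-regulated and 3 down-regulated in A2780, and 2 and 4 in A2780cis. The shares of all genes passing in either direction were then 29.4% and 30.7%. The line-by-treatment test at 12 h passed for 4 of the 18, with 2 in each direction, against 23.7% of all genes. CCNE2 (-1.19 ± 0.16, adjusted p = 5.82e-06) shared the direction of RRM2, as did CDC6, which loads the helicase (-0.61 ± 0.13, adjusted p = 0.00109). MCM6 (0.38 ± 0.13, adjusted p = 0.0440) and GINS2, a partner of the helicase (0.74 ± 0.15, adjusted p = 8.09e-04), differed the other way. CDC6 and GINS2 were named after their values were seen.

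**Figure D5:**
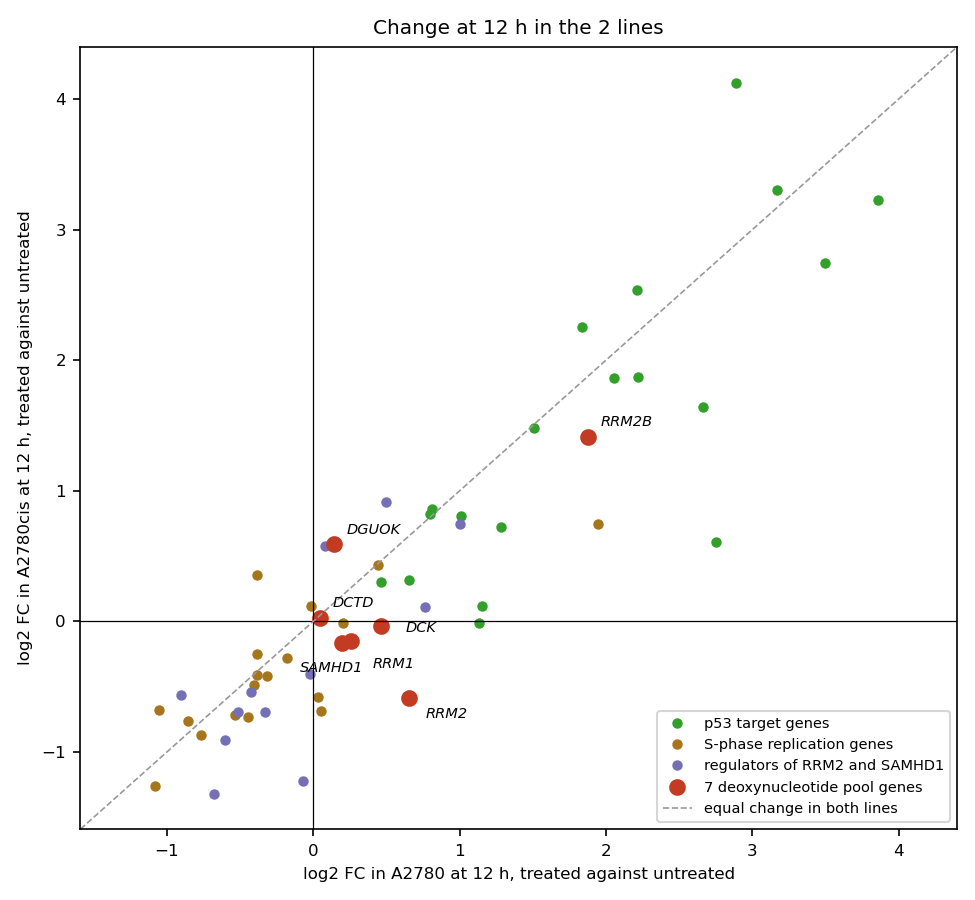
Log2 FC of treated against untreated cells at 12 h in A2780 (horizontal) and A2780cis (vertical) for the 7 genes (large red points, named) and 3 lists; the dashed line marks equal change. RRM2B, at 1.88 and 1.41, lies among the p53 target genes, and RRM2, at 0.65 and -0.58, lies in the lower right quadrant.

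The regulators listed were 12 genes that act on RRM2 or SAMHD1 or sense replication stress. In A2780 at 12 h 3 of the 12 were up-regulated and 6 down-regulated, and in A2780cis 3 and 8. CCNF, the cyclin of the ubiquitin ligase that targets RRM2 protein, had a log2 FC of -0.068 ± 0.13 in A2780 (adjusted p = 0.685) and fell by 1.22 ± 0.14 in A2780cis. CCNA2, a cyclin partner of the kinase CDK2, which acts on SAMHD1, had -0.68 ± 0.10 and -1.32 ± 0.10, whereas CDK2 itself rose by 1.00 ± 0.072 and 0.75 ± 0.071. Of the E2F transcription factors, which act on S-phase genes, E2F2 rose by 0.76 ± 0.10 in A2780 and had 0.11 ± 0.10 in A2780cis (adjusted p = 0.350). E2F1 rose by 0.50 ± 0.11 and 0.91 ± 0.11. The line-by-treatment difference at 12 h passed for 6 of the 12, 4 lower and 2 higher in A2780cis, against 23.7% of all genes. They included CCNF (-1.16 ± 0.19, adjusted p = 1.16e-04), CCNA2 (-0.64 ± 0.14, adjusted p = 0.00135) and E2F2 (-0.65 ± 0.14, adjusted p = 0.00135) in the direction of RRM2, and E2F1 in the other (0.41 ± 0.15, adjusted p = 0.0499). At 6 h 3 regulators rose and 5 fell in A2780, and 2 rose and 7 fell in A2780cis, against 29.4% and 30.7% of all genes. At 12 h ATR, the replication stress kinase, had -0.90 ± 0.11 in A2780 and -0.57 ± 0.10 in A2780cis.

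Neighbouring steps of deoxynucleotide metabolism are given by their counts, to be read against the 54.8% of all genes in A2780 and 59.9% in A2780cis that passed in either direction at 12 h. Of 10 genes of thymidylate synthesis, 5 rose and 2 fell in A2780 at 12 h, and 3 rose and 2 fell in A2780cis. TK1, the cytosolic thymidine kinase, rose in both lines (0.69 ± 0.16 and 0.51 ± 0.16), while DTYMK, thymidylate kinase (-0.35 ± 0.11 and -0.62 ± 0.11), and MTHFD1, an enzyme of folate metabolism (-0.73 ± 0.077 and -0.49 ± 0.077), fell in both. TK2, the mitochondrial thymidine kinase, rose by 0.51 ± 0.12 in A2780 and had 0.094 ± 0.11 in A2780cis (adjusted p = 0.487). DNPH1, a nucleotide hydrolase, had -0.059 ± 0.17 in A2780 (adjusted p = 0.787) and rose by 0.91 ± 0.16 in A2780cis, and the difference between the lines passed (0.96 ± 0.23, adjusted p = 0.00384).

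Of 11 nucleotide kinases, 2 rose and 1 fell in A2780, and 4 rose and 2 fell in A2780cis. Adenylate kinases AK1 (1.08 ± 0.13 and 0.77 ± 0.13) and AK3 (1.05 ± 0.11 and 0.84 ± 0.11) rose in both lines. AK4 fell by 0.65 ± 0.10 in A2780cis. Of 9 nucleotidases, phosphorylases and deaminases tested, 1 rose and 1 fell in A2780, and 3 each way in A2780cis. NT5C2, a cytosolic nucleotidase, fell by 1.11 ± 0.091 in A2780 and by 2.07 ± 0.092 in A2780cis, with a difference between the lines of -0.96 ± 0.13 (adjusted p = 6.94e-06). NT5C3A, another nucleotidase, fell in A2780cis (-0.69 ± 0.13), where the phosphorylases UPP1 (0.43 ± 0.14) and PNP (0.25 ± 0.11) rose. Of 6 hydrolases that clear unusual nucleotides, 0 rose and 2 fell in A2780, and 2 each way in A2780cis. DCTPP1, the dCTP pyrophosphatase, fell in both lines (-0.77 ± 0.11 and -0.62 ± 0.11), while NUDT1 (0.57 ± 0.18) and ITPA (0.44 ± 0.11), which clear oxidized and deaminated nucleotides, rose in A2780cis. At 6 h, when 29.4% and 30.7% of all genes passed, the numbers that rose and fell in A2780 were 5 and 0 for thymidylate synthesis, 4 and 0 for nucleotide kinases, 1 and 1 for nucleotidases and the like, and 1 and 1 for the hydrolases. In A2780cis they were 3 and 0, 4 and 1, 0 and 2, and 1 and 1.

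The order of the 8 groups differed from gene to gene. For RRM2, neighbouring groups were separate at 4 of the 7 steps of the order, for RRM2B and DCK at 3, and for SAMHD1 at none. Treated A2780 at 12 h had the highest mean level of RRM2B (168 ± 17.8 CPM) and of DCK (58.3 ± 9.82 CPM), treated A2780cis at 12 h the highest of DGUOK (60.2 ± 9.11 CPM), and untreated A2780cis at 6 h the highest of SAMHD1 (50 ± 3.52 CPM) and DCTD (134 ± 3.53 CPM), although none of these top groups was separate from the next one.

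Genes with the most similar course were sought by Pearson's r of log2 CPM over the 24 libraries, centred within each line, among the 8627 genes whose log2 CPM averaged 4 or more. RRM2B was most like SOCS4 (r = 0.979), SGCB (0.976) and ZNF468 (0.9755). RRM1 was most like FNTA (0.967), RPA2 (0.958) and NCOA4 (0.958), and RRM2, beside an unnamed gene, most like GOLIM4 (0.940) and HAUS2 (0.936). DGUOK was closest to ATP5F1E (0.942), CTSL (0.940) and NDUFB2 (0.936), DCK to STARD4 (0.910), ZBTB10 (0.901) and NUDT11 (0.886), SAMHD1 to SWAP70 (0.872), TOR1AIP2 (0.838) and LPIN2 (0.829), and DCTD, again beside an unnamed gene, to SRXN1 (0.945) and CCNE1 (0.914). Among the 7 genes, r was 0.789 between RRM2 and SAMHD1, 0.762 between RRM1 and RRM2, 0.754 between RRM2 and DCK, 0.218 between RRM2 and RRM2B and -0.271 between RRM2 and DGUOK. These values describe libraries that share treatment, time and depth, and carry no test.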

How the data were processed

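Whole transcriptome libraries (TruSeq Stranded Total RNA, NextSeq500) of A2780 and A2780cis cells were analysed. According to the labels and the methods of the study, the authors trimmed reads with Trimmomatic, aligned them with STAR 2.5.2b to GRCh38.p7 and counted them on exons with featureCounts, splitting reads with several alignments and allowing overlap with several genes. The deposited values are thus expected counts, not normalized. The labels describe single and the paper paired-end reads, and the strand setting was not given in the sources used here.

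Counts were rounded and fitted in R 4.3.3 with edgeR 4.0.16 (filterByExpr with minimum count 10 and total 15, TMM, 1 coefficient per group, 16 residual degrees of freedom). Of 63299 genes, 20240 were tested. P-values come from edgeR's two-sided quasi-likelihood test with Benjamini-Hochberg adjustment over all genes tested, threshold 0.05. SEs were obtained from the F statistic as |log2 FC| over its root, and intervals from 16 degrees of freedom. Ratios within libraries were tested by exact permutation. Names, exons and transcripts came from GENCODE 44, which is later than the annotation used for counting. Its RRM2 model takes in a second gene, so levels per length use the MANE Select transcript, an alternative chosen after seeing the data. Totals ranged from 11077368 to 21901406 counts; intervals cover counting and replicate error only, since reads carry no molecular identifiers. The fitting procedure was tested on simulated data.

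The 7 genes and all lists were chosen with earlier results of these data known. Of the other genes of a list, the text names up to 2 largest rises and 2 largest falls at 12 h in either line, taken from those called by the test whose log2 CPM averaged 2 or more. Some genes that this rule would name are not reported here. CDC6 and GINS2 were added after their values were seen. Replicates of a group differed beyond sampling noise (chi-square per degree of freedom 2.23 to 25.8), so no library was counted as a duplicate. The labels give groups the same replicate numbers, but these do not say what a number shares. Deviations of same-numbered treated and untreated libraries correlated at 0.13 to 0.68 in A2780cis at 12 h, and at -0.76 to 0.34 in the other 3 comparisons. Alternatives were size factors of DESeq2 1.42.0 and its Wald test, library size alone, no filter, unrounded counts, the replicate block, the compared samples alone, removal of lncRNA and rRNA genes, and each library left out in turn.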

Additional observations from a re-analysis of the deposited data

Results flagged for a closer look

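The treatment effect differed between the lines, by a test of the difference itself (log2 FC in A2780cis minus that in A2780), for RRM2 at 6 h (-0.72) and at 12 h (-1.24), and at 12 h for DCK (-0.49), DGUOK (0.45) and SAMHD1 (-0.36). RRM2 passed in each of the 12 fits that left out 1 library at either time. DCK did not pass in 8 of those 12, DGUOK in 7 and SAMHD1 in 10.

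The treatment effect differed between 12 h and 6 h, again by a test of the difference, for RRM2B in A2780 (1.15) and in A2780cis (0.61) and for DGUOK in A2780cis (0.59). RRM2B in A2780 and DGUOK in A2780cis passed in each of the 12 fits that left out 1 library, and RRM2B in A2780cis did not pass in 3 of them. In untreated A2780cis cells RRM2B had a log2 FC of -0.42 at 12 h against 6 h. Its treated A2780cis libraries of 6 h and 12 h overlapped.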

How the results depend on the processing

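The calls of RRM2B in the 4 treatment comparisons held under all 8 other settings and every left-out library. So did those of RRM2 in A2780 at both times and in A2780cis at 12 h. The calls at 12 h of DCK in A2780 and of DGUOK in A2780cis also held throughout, as did the line-by-treatment differences of RRM2. Numbers of the 7 genes past the threshold moved as follows. With scaling by library size alone they were 4 for A2780 at 6 h, 7 for A2780 at 12 h, 1 for untreated A2780cis at 12 h against 6 h and 3 for time by treatment in A2780. For untreated A2780cis over time the number was 3 without the filter, 3 with lncRNA and rRNA genes removed and 3 with the compared samples alone. For line by treatment at 12 h it was 2 with the compared samples alone. With 1 library left out, the number ranged from 1 to 2 for A2780cis at 6 h, 0 to 3 for untreated A2780 over time, 2 to 5 for untreated A2780cis over time, 1 to 6 for line by treatment at 12 h and 1 to 3 for time by treatment in A2780cis. Apart from scaling and from fits with fewer samples, the cause was not tested.

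Effects that changed sign were all near 0 and never past the threshold. In A2780cis at 6 h DGUOK was -0.012 with DESeq2 size factors and -0.013 by the Wald test, and -0.039 to 0.080 with 1 library left out. SAMHD1 there was 0.062 by library size, 0.021 without lncRNA and rRNA genes and 0.00268 with the compared samples alone (-0.072 to 0.022 with 1 library left out). DCTD there was 0.080, 0.00613, 0.037 and 0.020 by library size, without the filter, without lncRNA and rRNA genes and with the compared samples alone (-0.050 to 0.00198). In A2780cis at 12 h DCK was 0.079 by library size (-0.17 to 0.075) and DCTD -0.024 without the filter (-0.062 to 0.097). DCTD in A2780 at 12 h ranged from -0.00642 to 0.070. For line by treatment, DGUOK at 6 h was 0.00755 without lncRNA and rRNA genes (-0.11 to 0.00866), RRM2B at 6 h ranged from -0.012 to 0.15, and DCTD at 12 h was 0.038 with the compared samples alone (-0.090 to 0.052).

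The replicate number pairs libraries by no label. As a block it gave RRM1 (-0.41, adjusted p = 0.0474) and RRM2B (-0.48, adjusted p = 0.0311) a call for line by treatment at 12 h, and RRM2B one for untreated A2780cis against A2780 at 6 h (adjusted p = 0.0211). In A2780cis at 12 h the block changed no call. Same-numbered libraries there correlated at 0.13 to 0.68, and those of different numbers at -0.76 to 0.48. Each of the 7 genes had at least 321 counts in every library, and each group had 3 libraries.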
